A study of Mus musculus with 84 samples.

Results

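The genes described here are the G1 cell-cycle set of D cyclins and cyclin-dependent kinase (CDK) inhibitors. They were taken by symbol as 10 rows of the deposited expression table, which holds 20308 genes. The set comprises the D cyclins Ccnd1, Ccnd2 and Ccnd3, the kinases Cdk4 and Cdk6, the inhibitors Cdkn1a, Cdkn1b, Cdkn1c and Cdkn2c, and the retinoblastoma gene Rb1. All 10 symbols had a row, and the proliferation markers Mki67 and Top2a served as the measure of cycling. The data are single-cell transcriptomes of 84 endothelial cells from the aorta-gonad-mesonephros region (AGM) of mouse embryos at stage E11.5. This trunk tissue surrounds the dorsal aorta. Cells had been sorted as CD31+CD144+CD41-CD45-, that is, with 2 endothelial surface proteins and without 2 proteins of blood cells. They were caught on a Fluidigm C1 chip made for cells of 10 to 17 µm, and libraries were read as single ends of 67 bp. Strain, genotype, number of embryos and pooling were not given in the sources used here, so the 84 cells form 1 group and count as 1 sample. Every value below describes these cells, and no test between cells was made.

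D cyclins are made in response to growth signals and bind Cdk4 or Cdk6. The active complex phosphorylates the Rb1 protein, which then releases E2F factors that switch on genes of DNA replication. Inhibitors of the Cip/Kip family, which are Cdkn1a (p21), Cdkn1b (p27) and Cdkn1c (p57), bind cyclin and kinase together, whereas the INK4 protein Cdkn2c (p18) binds Cdk4 and Cdk6 themselves. Mki67 and Top2a are made mainly from S phase to mitosis. In endothelium, Cdkn1b has been linked to the cell-cycle arrest that accompanies arterial specification under flow. Cdkn1c is imprinted, with expression mainly from the maternal copy, and is known for its role in embryonic growth.

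The values are TPM (transcript abundance scaled to transcript length and to a fixed total per cell), so levels can be compared between genes as far as length goes. Other differences between genes, such as exons shared with a gene on the other strand, are not corrected by this scaling. Detection in a cell means TPM 1 or more throughout. A median of 6978 genes was detected per cell, with a range from 3334 to 10073. Of 17 pan-endothelial genes, a median of 15 per cell reached TPM 10, and 80 cells held at least 3. The blood genes Ptprc, Spi1 and Gfi1 were at 0 in all cells, and 0 cells repeated the values of another. The endothelial label fits most cells by these markers, but 9 cells held fewer than 10 of the 17 genes at TPM 10. In addition, 32 cells held at least 3 of 12 mesenchyme genes at TPM 10, and 4 cells carried the muscle regulator Myog at TPM 10 or more. Members that differed in such cells are described with and without them.

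Promoter sequences show where the genes of the set and the cycling markers sit on the genome and which known motifs lie there. RefSeq promoters of GRCm38.p6 matched 6 of the 10 members (Ccnd3, Cdk4, Cdk6, Cdkn1a, Cdkn1b and Cdkn2c) and both markers. The 250 bases before each start site in that table were searched on both strands. A start site there need not be the outermost end of the gene, and the Cdk6 window lies within the annotated gene, while those of Mki67 and Top2a overlap the first bases of theirs. The motifs were the E2F elements TTTCCCGC and TTTGGCGC, the CHR elements TTTGAA and TTCGAA of genes that peak late in the cycle, the CCAAT box and the E-box CACGTG bound by Myc and related factors. They were chosen after earlier results and these sequences had been seen. Both markers are shown with Cdk4, whose window stood out in its E-boxes, and with its relative Cdk6. Each is written 5′ to 3′ on its gene's strand, capitals mark every CCAAT, CHR or E-box match in either orientation, and 0 of these matches overlap. The windows are chr11:99024190-99024439 on the minus strand for Top2a, chr7:135716380-135716629 on the minus strand for Mki67, chr10:127063285-127063534 on the plus strand for Cdk4 and chr5:3343643-3343892 on the plus strand for Cdk6.
Top2a: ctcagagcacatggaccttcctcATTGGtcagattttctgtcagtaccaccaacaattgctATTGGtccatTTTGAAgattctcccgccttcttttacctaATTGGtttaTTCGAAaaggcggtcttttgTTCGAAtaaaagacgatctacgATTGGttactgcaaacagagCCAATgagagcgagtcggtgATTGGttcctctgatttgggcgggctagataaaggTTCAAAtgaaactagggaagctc
Mki67: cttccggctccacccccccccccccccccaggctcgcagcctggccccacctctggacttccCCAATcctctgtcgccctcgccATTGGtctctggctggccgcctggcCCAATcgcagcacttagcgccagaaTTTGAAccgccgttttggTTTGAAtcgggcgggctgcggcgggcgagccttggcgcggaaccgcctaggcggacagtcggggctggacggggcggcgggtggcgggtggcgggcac
Cdk4: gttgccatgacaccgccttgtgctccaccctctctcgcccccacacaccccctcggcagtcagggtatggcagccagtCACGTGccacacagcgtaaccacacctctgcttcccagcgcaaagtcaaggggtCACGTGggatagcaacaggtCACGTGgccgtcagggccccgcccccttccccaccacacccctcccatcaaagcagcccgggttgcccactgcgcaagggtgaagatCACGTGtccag
Cdk6: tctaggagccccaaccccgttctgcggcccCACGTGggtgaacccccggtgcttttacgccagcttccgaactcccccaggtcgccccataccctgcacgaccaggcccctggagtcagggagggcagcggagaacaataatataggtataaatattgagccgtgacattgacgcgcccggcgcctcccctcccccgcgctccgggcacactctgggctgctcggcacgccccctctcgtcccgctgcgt
The Top2a window held 6 CCAAT boxes, 2 TTTGAA and 2 TTCGAA elements, and the Mki67 window held 3 CCAAT boxes and 2 TTTGAA elements. The Cdk4 window held 4 E-boxes and the Cdk6 window 1, and neither held a CCAAT box or a CHR element. Of the other members, Cdkn1b had 2 CCAAT boxes, Ccnd3 had 1 in 1 of its 2 annotated windows, and 0 of the member windows held the letters of an E2F or CHR element. Among 32851 RefSeq promoters searched in the same way, TTTGAA was found in 15.99%, TTCGAA in 1.34%, CCAAT in 33.8% and CACGTG in 6.02%. TTTCCCGC was found in 0.895% and TTTGGCGC in 0.417%. Only 7 of these promoters (0.0213%) held 4 or more copies of CACGTG, as the Cdk4 window did. That cutoff is the count of the Cdk4 window itself, taken after it was seen, so the share is a description only. A match describes letters in a window and does not show that a factor binds there.

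Cells of the AGM endothelial sort carried all 3 D cyclins, a high level of Cdk4 and a high level of the inhibitor Cdkn1c, while Cdk6, Cdkn1a, Cdkn2c and Rb1 were found in a minority of cells. Of the 10 members, 6 were detected in 42 or more of the 84 cells (Ccnd1, Ccnd2, Ccnd3, Cdk4, Cdkn1b and Cdkn1c), against 34.6% of all genes. Cdk4 and Cdkn1c were detected in every cell, which held for 3.71% of all genes. The order of median levels, low to high, began with Cdk6, Cdkn1a, Cdkn2c and Rb1, all with a median of 0 TPM, and went on with Cdkn1b, Ccnd3, Ccnd2, Ccnd1, Cdkn1c and Cdk4. Intervals beside shares of cells are exact Clopper-Pearson ones at the 95% level and cover counting error only.

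**Figure D1:**
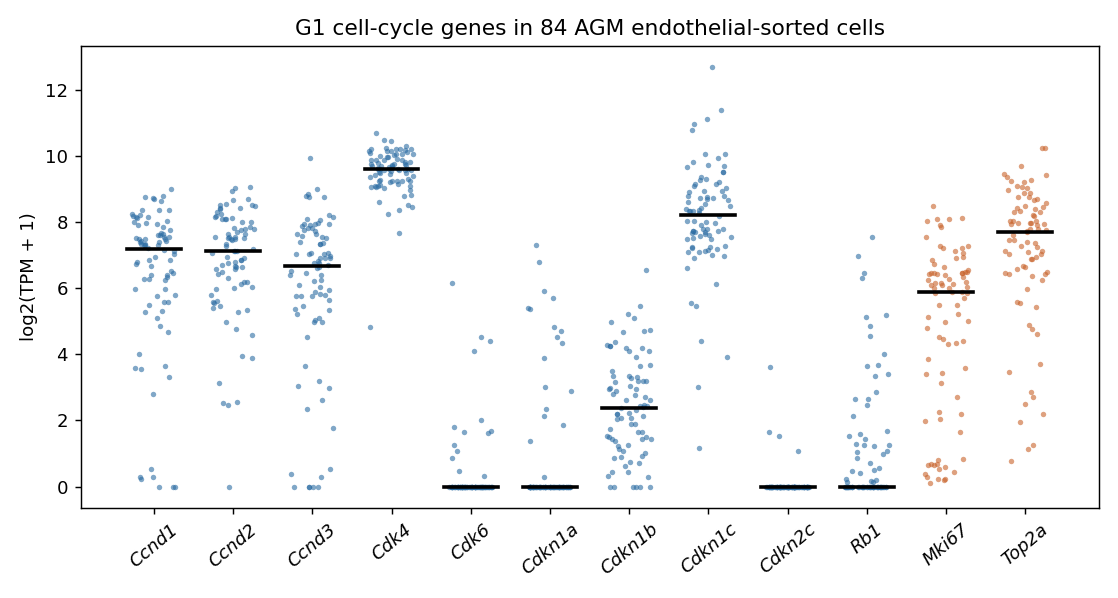
Level of each member and of the cycling markers Mki67 and Top2a in every one of the 84 cells, as log2(TPM + 1); each point is 1 cell and the black bar is the median. Cdk4 forms the highest band (median 783 TPM), Cdkn1c spreads from 1.23 to 6596 TPM, and Cdk6, Cdkn1a, Cdkn2c and Rb1 lie at 0 in most cells.

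Ccnd1, the D cyclin best known as a target of growth-factor signalling (chromosome 7, 144929931 to 144939831), reached TPM 1 in 77 cells, or 91.7% (83.6% to 96.6%). Its lowest value was 0 TPM, its median 145 TPM and its highest 514 TPM. Ccnd2 (chromosome 6, 127125162 to 127152188) reached it in 83 cells, or 98.8%, with a lowest value of 0, a median of 139 and a highest value of 528 TPM. Ccnd3 (chromosome 17, 47505051 to 47599689) was detected in 76 cells, or 90.5% (82.1% to 95.8%), with a lowest value of 0, a median of 99.98 and a highest value of 968 TPM. The medians of the 3 cyclins therefore lay close together, and single cells spread over the full range of each. Ccnd1 was above Ccnd2 in 39 of the 83 cells in which they differed, or 46.99% (35.9% to 58.3%), and Ccnd2 was above Ccnd3 in 50 of 84 cells, or 59.5% (48.3% to 70.1%). Both shares lay near an even split of cells, so neighbours in this order differed by less than the spread over cells. Exons of all 3 genes overlap exons of genes on the other strand, and no strand-aware counting is stated in the labels, so reads of these stretches cannot be told apart. The largest shared stretch was 818 bp for Ccnd1 with LTO1, 372 bp for Ccnd2 with Gm43126 and 361 bp for Ccnd3 with Bysl.

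Most cells carried transcripts of all D cyclins at once, but in unequal amounts. All 3 were detected in 72 cells, 2 in 8 cells and 1 in 4 cells, and at TPM 10 or more the counts were 63, 14 and 7 cells. No cell lacked all of them at either threshold. Ccnd2 was the highest D cyclin in 33 cells, Ccnd1 in 27 and Ccnd3 in 24. The highest cyclin of a cell accounted for 56.6% of its D-cyclin TPM at the median, and 8 cells had over 90% from 1 gene, of which 4 were led by Ccnd2, 1 by Ccnd1 and 3 by Ccnd3. The summed D-cyclin level varied less than its parts, with quartiles of 295 and 571 TPM around a median of 434 TPM. Its lowest value was 26.6 TPM in cell 35 and its highest 1201 TPM. On the log2(TPM + 1) scale, the SD over cells was 2.30 for Ccnd1, 1.67 for Ccnd2 and 2.45 for Ccnd3. Genes of a like mean level had median SDs of 1.93, 1.77 and 2.05.

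The kinases of the set were far apart. Cdk4 (chromosome 10, 127063535 to 127067288) was detected in all 84 cells (95.7% to 100%), with a lowest value of 27.3 TPM, quartiles of 604 and 1004 TPM, a median of 783 TPM and a highest value of 1635 TPM. It ranked 199 of 20308 genes by mean level, and its SD of 0.75 on the log2 scale was near the median of 0.72 for 127 genes of a like mean. The lowest cell, cell 7, stood apart from the next lowest at 201, 301 and 330 TPM, and had 5240 detected genes. Cdk6 (chromosome 5, 3341004 to 3531008), which can take the place of Cdk4 in the complex, was detected in 11 cells, or 13.1% (6.72% to 22.2%), and reached TPM 10 in 4. Its highest values were 69.9 TPM in cell 43 and 21.8 TPM in cell 40. Cdk4 was above Cdk6 in every cell, by at least 9.06 times in the 11 cells with Cdk6. Summed over all cells, Cdk4 TPM was 468 times Cdk6 TPM. Cdk4 also exceeded the summed D cyclins in 70 cells, at a median ratio of 1.83. Of the 11 cells with Cdk6, 5 belonged to 1 of the 7 sets of 12 cells that share the second index of their barcode, and the other sets held 0 to 2. Without that set, Cdk6 was detected in 8.33% of cells. Exons of Cdk4 share up to 641 bp with Tspan31 on the other strand, which was detected in 78 cells at a median of 138 TPM.

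Among the 4 inhibitors of the set, Cdkn1c made up nearly all of the transcript level. Cdkn1c (chromosome 7, 143458339 to 143461059) was detected in all 84 cells, reached TPM 10 in 82 and TPM 100 in 76, and ranked 329 of 20308 genes by mean. Its lowest value was 1.23 TPM, its quartiles 178 and 524 TPM, its median 297 TPM and its highest value 6596 TPM. Cdkn1c was the highest of the 4 inhibitors in 82 cells and held a median of 97.9% of their summed TPM. Cdk4 was above Cdkn1c in 70 of 84 cells, or 83.3% (73.6% to 90.6%), and Cdkn1c was above Ccnd1 in 64, or 76.2% (65.7% to 84.8%). Its SD of 1.69 exceeded the median of 1.29 for 272 genes of a like mean. The 4 cells lowest in Cdkn1c, chosen after their values were seen, held 1.23, 7.11, 14.1 and 19.97 TPM. Mki67 lay between 30.4 and 357 TPM and Top2a between 243 and 539 TPM in them, and over all cells 60 of 84 reached TPM 10 for Mki67 and 76 for Top2a.

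Cdkn1b (chromosome 6, 134920401 to 134925525) was widespread but low. It was detected in 68 cells, or 80.95% (70.9% to 88.7%), and reached TPM 10 in 20 of them. Its quartiles were 1.55 and 9.07 TPM, its median 4.23 TPM and its highest value 92.2 TPM. Ccnd3 was above Cdkn1b in 74 of 83 cells, or 89.2% (80.4% to 94.9%). Summed over cells, Cdkn1c TPM was 59.5 times Cdkn1b TPM. At this level a value below TPM 1 can come from a missed transcript as well as from absence, and 92.9% of cells had a value above 0.

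Cdkn1a (chromosome 17, 29090979 to 29100722), the p53-responsive inhibitor, was detected in 17 cells, or 20.2% (12.3% to 30.4%), with a median of 22.2 TPM in those cells and a highest value of 158 TPM. Cdkn2c (chromosome 4, 109660876 to 109666756) was detected in 4 cells, or 4.76% (1.31% to 11.7%), at 11.25, 2.11, 1.88 and 1.09 TPM. Of the 4 inhibitors, 1 was detected in 13 cells, 2 in 54 cells, 3 in 16 cells and all 4 in 1 cell. Of 4 further CDK inhibitors, the INK4 genes Cdkn2a and Cdkn2b were detected in 0 cells, and a limit of 3 cells of 84 allows a share of up to 3.57% with a transcript at TPM 1. Cdkn2d (p19) was detected in 46 cells, with a highest value of 1120 TPM, and the phosphatase gene Cdkn3 in 41.

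Rb1 (chromosome 14, 73192858 to 73325951), the target of the Cdk4 complex, was detected in 28 cells, or 33.3% (23.4% to 44.5%), and was above 0 in 40. Its median was 0 TPM and its highest values were 186 TPM in cell 27 and 124 TPM in cell 41. Rb1 exceeded Cdkn1a in 30 of the 46 cells in which they differed, or 65.2% (49.8% to 78.6%). In the GENCODE annotation, exons of Rb1 share up to 105 bp with Rcbtb2 on the other strand, those of Cdk6 110 bp with Gm17590, those of Cdkn1a 261 bp with AC167363.2 and those of Cdkn1c 422 bp with Gm44732, while Cdkn1b and Cdkn2c share none. Of 15 further pocket proteins and E2F factors, E2f1 was detected in 80 cells at a median of 6.85 TPM and Tfdp1, the partner of E2F proteins, in 74. The Rb1 relative Rbl2 was found in 16 cells, the fewest of that list, and Rbl1 in 30. Of 12 other cyclin and kinase genes of G1 and S phase, Cdk7 and Cks1b were each detected in 83 cells and Cables1 in 27.

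The central comparison set each member against Mki67 and Top2a in the same cells. Mki67 (chromosome 7, 135689784 to 135716450) was detected in 69 cells, with a lowest value of 0.07 TPM, a median of 58.1 and a highest value of 357 TPM. Top2a (chromosome 11, 98992947 to 99024199) was detected in 83 cells, with a lowest value of 0.7 TPM, a median of 207 and a highest value of 1208 TPM. The cycling index of a cell was the mean log2(TPM + 1) of both. It followed a list of 16 other G2 and mitosis genes (Spearman's rho 0.81 with their mean, n = 84 cells) and had little relation to 14 S-phase genes (rho 0.11). Values of the index thus follow genes of the later part of the cycle. Genes of a cell share its library, so rho is given as a description with no p.

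No member had a strong relation to the cycling index. Spearman's rho over the 84 cells was 0.01 for Ccnd1, -0.09 for Ccnd2 and 0.00 for Ccnd3. It was 0.10 for Cdk4 and -0.07 for Cdk6. Among the inhibitors it was 0.07 for Cdkn1a, 0.14 for Cdkn1b, -0.03 for Cdkn1c and 0.13 for Cdkn2c, and it was 0.01 for Rb1. Of the 7 members detected in 20 or more cells, 0 reached a rho of 0.3, against 2.9% of 9683 genes so detected, and 0 reached -0.3, against 0.713%. A count of 0 among 7 is near these shares, so it does not set the members apart from other genes. The 16 G2 and mitosis genes all reached 0.3, with a median rho of 0.62, a lowest value of 0.38 for Cdc20 and a highest of 0.76 for Ube2c. Their most widely detected genes were Birc5 and Hmmr, in 84 cells each, and Aurka and Aurkb, the least detected, were found in 51. The summed D cyclins had a rho of -0.04. With Mki67 and Top2a taken alone, rho was -0.08 and 0.08 for Ccnd1, -0.06 and -0.14 for Ccnd2, 0.02 and 0.17 for Cdk4, and 0.16 and 0.10 for Cdkn1b.

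**Figure D2:**
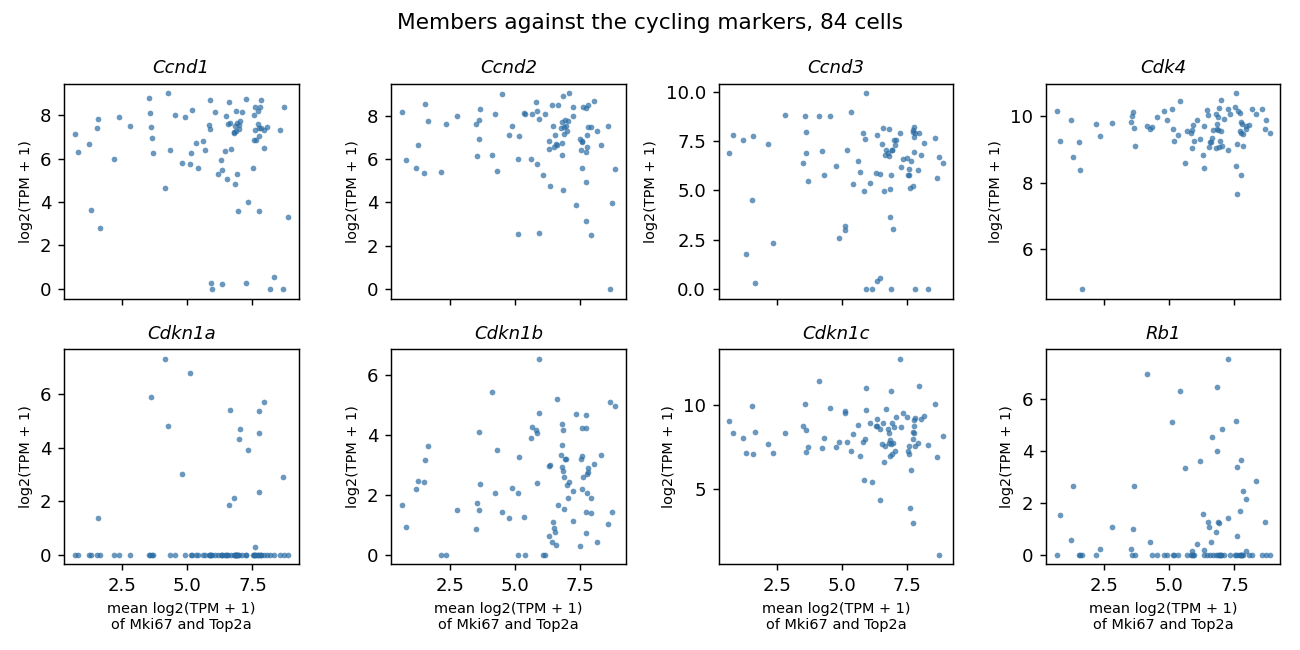
Members against the cycling index, the mean log2(TPM + 1) of Mki67 and Top2a, in 84 cells; each point is 1 cell, both axes are log2 scales, and each panel has its own vertical range. The clouds show no clear slope: Cdk4 has a rho of 0.10 with the index and spans 27.3 to 1635 TPM around its median of 783 TPM. Low values of Ccnd1 and Cdkn1c occur among cells high in the index.

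Within the sets of 12 cells that share a second index, the values scattered on both sides of 0. Over the 7 sets, rho ranged from -0.44 to 0.26 for Ccnd1, from -0.56 to 0.46 for Ccnd2, from -0.13 to 0.68 for Cdk4, from -0.24 to 0.44 for Cdkn1b and from -0.60 to 0.43 for Cdkn1c. With 12 cells a set, these values are loose. The markers themselves varied between sets, with median Mki67 between 1.88 and 95.5 TPM and median Top2a between 99.8 and 286 TPM. Set medians of Cdk4 lay between 727 and 854 TPM, those of Ccnd1 between 65.5 and 190 TPM and those of Cdkn1c between 230 and 471 TPM. What the sets stand for beyond the barcode is not given in the sources used here.

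**Figure D3:**
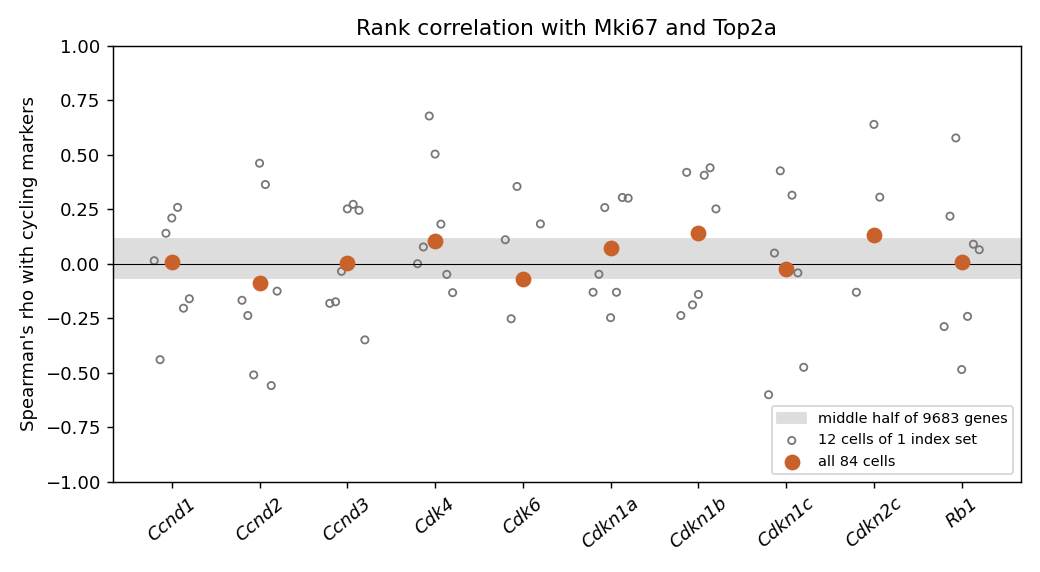
Spearman's rho of each member with the cycling index; filled points are all 84 cells, open points are the sets of 12 cells that share a second index, for sets in which the member varied, and the grey band spans the quartiles of 9683 genes (-0.06 to 0.11). The values over all cells lie between -0.09 and 0.14, while single sets scatter to both sides.

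The quartile ranges of each member overlapped between cells high and low in the markers. In the 28 cells highest in the cycling index the median of Mki67 was 106 TPM, against 0.755 TPM in the 28 lowest, and that of Top2a was 424 against 83.1 TPM. Ccnd1 had a median of 159 TPM in the highest cells, against 107 TPM in the lowest, but was detected in 24 of 28 and 28 of 28 cells. Ccnd2 had medians of 117 TPM in the highest and 163 TPM in the lowest cells, and Ccnd3 of 99.98 and 103 TPM. Cdk4 had a median of 836 TPM in the highest cells, against 802 TPM in the lowest, and Cdkn1c of 308 against 283 TPM. Cdkn1b stood at 4.73 TPM in the highest cells, against 3.18 TPM in the lowest. Cdkn1a was detected in 7 of the highest cells and 6 of the lowest, Rb1 in 11 and 8, Cdk6 in 3 and 3, and Cdkn2c in 3 and 1. The difference of mean log2(TPM + 1) ranged over the members from -0.62 for Ccnd1 to 0.46 for Cdkn1b. For Ccnd1 and for Cdkn1c (-0.39) it runs against the higher median of the highest cells, since a few of those cells had very low values. Of the 7 members with 20 or more detected cells, 0 differed by 1 log2 unit, against 9.07% of genes higher and 5.1% lower. With only 7 members, a count of 0 is near these shares as well.

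D cyclins were also present in cells with few cycling transcripts. In the 7 cells with both Mki67 and Top2a under TPM 10, the median of Ccnd1 was 100.1 TPM, that of Ccnd2 99.5 TPM and that of Ccnd3 120 TPM. In the other 77 cells these medians were 155, 140 and 98.0 TPM. Cdk4 had a median of 599 TPM in the 7 cells, with a range from 27.3 to 1134 TPM, against 788 TPM in the other 77. Cdkn1c had a median of 321 TPM in the 7 cells, with a range from 138 to 968 TPM, against 290 TPM in the others. The ranges overlap for each of these members.

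The S-phase list gave somewhat higher values for some members. Against the mean of 14 S-phase genes, rho was 0.29 for Ccnd1, 0.25 for Ccnd2, 0.28 for Cdkn1a, 0.20 for Cdk4 and 0.11 for Ccnd3. It was 0.10 for Cdk6, 0.04 for Cdkn2c, 0.02 for Rb1, -0.17 for Cdkn1b and -0.07 for Cdkn1c. The value for Cdkn1a rests on 17 detected cells. No share over all genes is given for this list, so whether these values stand out among genes was not tested. Among the S-phase genes themselves, Tyms was detected in all 84 cells, Pcna in 83 and Cdc6 in 50, the fewest. With the Mki67 and Top2a index, 2 of the 14 reached a rho of 0.3 (Mcm7 at 0.31 and Tyms at 0.38), and the median was 0.12. The other cyclins and kinases of G1 and S phase gave 2 of 12 (Ccna2 at 0.64 and Cks1b at 0.38) with a median of 0.04. Pocket proteins and E2F factors gave 1 of 14 tested (E2f8 at 0.37) with a median of 0.02, and the median over all 9683 genes was also 0.02. The medians of these last 2 lists thus lay near that of all genes.

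Members had little relation to each other. Among 21 pairs of the 7 members detected in 20 or more cells, the median rho was -0.03 and 1 pair reached 0.3, Ccnd3 with Cdkn1c at 0.31. Cdk4 with Cdkn1c had 0.29, and the lowest pair was Ccnd3 with Rb1 at -0.21. The genes most like each member, among those detected in 20 or more cells, were as follows. For Ccnd1 they were the matrix protein gene Sparc (rho 0.60), the adhesion molecule Mcam (0.54) and the nucleotide carrier Slc25a5 (0.49), and 1.85% of 9682 genes reached 0.3. For Ccnd2 they were Ptprs, Pkig and Gm3558 (0.41 to 0.42), with 0.589% of genes at 0.3 or more. For Ccnd3 they were Sod1 (0.48), Vcp (0.44) and Pex14 (0.42), with 0.919% of genes so related. For Cdk4 they were Gsk3b, Hist1h2ab and Kctd13 (0.37 to 0.39), with 0.382% of genes at 0.3 or more, and for Rb1 Gpr137, Mipol1 and Zfp30 (0.38 to 0.39), with 0.434%. Genes like Cdkn1b included Malt1 (0.48) and Hist1h4i (0.43), with 0.682% of genes at 0.3 or more. Cdkn1c was most like Igfbp5 (0.60), which encodes a binding protein of insulin-like growth factors, the glypican gene Gpc3 (0.56) and Epb4.1l3 (0.55), with 1.15% of genes at 0.3 or more and 1.82% at -0.3 or less. These leading genes were picked as the extremes of many, so their rho is a description of these 84 cells.

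Because Cdkn1b is linked to arterial arrest, it was set beside arterial genes. Cells with the connexin Gja4 (23 cells) had a Cdkn1b median of 5.55 TPM, against 4.18 TPM in the other 61, and 8 of 23 reached TPM 10, against 12 of 61. Cells with the Notch ligand Dll4 (29 cells) had a lower median of 3.21 TPM, against 5.09 TPM in cells without it, and rho with Dll4 was -0.18. The 8 cells with Gja5 had 2.92 TPM, against 4.395 TPM in the others, and the 37 cells with Sox17 had 4.18 TPM, against 4.28 TPM. For the other arterial genes detected in 8 or more cells, rho with Cdkn1b was -0.03 for Hey1, 0.03 for Efnb2, 0.06 for Cxcr4, 0.04 for Bmx, 0.12 for Unc5b, 0.11 for Notch1 and -0.02 for Nrp1. The values for Gja4 and Dll4 lay on opposite sides, and Cdkn1b levels of a few TPM leave small differences undetectable. Hey2, detected in 4 cells, was too rare for this comparison. The venous genes Nr2f2 and Emcn were detected in all 84 cells and Lyve1 in 22. Between the 7 members and the 9 arterial and 10 venous or lymphatic genes detected in 20 or more cells, 4 pairs reached 0.3 or -0.3. They were Rb1 with Gja4 (0.32), Ccnd3 with Cxcr4 (0.31), Ccnd1 with Emcn (0.30) and Cdkn1c with Flt4 (-0.35). Over all genes, 0.434% reached 0.3 with Rb1, 0.919% with Ccnd3 and 1.85% with Ccnd1, and 1.82% reached -0.3 with Cdkn1c. These 4 pairs were the extremes of all the pairs compared, so they describe these cells only.

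Cdkn1c was higher in cells that also carried mesenchyme transcripts. In the 32 cells with 3 or more of 12 mesenchyme genes at TPM 10, Cdkn1c ranged from 126 to 1993 TPM with a median of 486 TPM. In the 52 other cells it ranged from 1.23 to 6596 TPM with a median of 207 TPM. The ranges overlap, with the highest and the lowest cells both among the 52. The difference of mean log2(TPM + 1) was 1.198, and 4.17% of 9683 genes were higher by 1 log2 unit or more, with a median difference of -0.11 over all of them. By the number of mesenchyme genes at TPM 10, the median was 192 TPM with 0 genes (41 cells), 372 TPM with 1 or 2 (11 cells), 425 TPM with 3 to 5 (17 cells) and 570 TPM with 6 or more (15 cells). The rank correlation of Cdkn1c with the mean of the list was 0.47, and it was above 0 in all 7 index sets (0.10 to 0.63). The difference itself was above 0 in 6 of the 7 sets, from -0.31 to 3.49 log2. By gene, rho was 0.53 for the collagen genes Col1a2 and Col3a1 and 0.45 for Col1a1, but 0.20 for Prrx1, 0.23 for Twist1 and 0.18 for Pdgfra.

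Most mesenchyme-marker cells also held endothelial transcripts. Their median was 13 of 17 pan-endothelial genes at TPM 10 (0 to 17), against 15 in the other cells (1 to 17). Fewer than 10 were held by 8 of the 32 mesenchyme-marker cells, against 1 of the 52 others. The mesenchyme-marker cells had a median of 6861.5 detected genes, against 7049. The summed level of the mesenchyme list ranged from 77.5 to 2969 TPM in the 32 cells, against 0.04 to 113 TPM in the 52, and each of the 12 genes was detected in some cell. The rank correlation of Cdkn1c with the mean of the pan-endothelial list was -0.38, with the receptor gene Tie1 lowest at -0.51, followed by Egfl7 at -0.42, Pecam1 at -0.35 and Cldn5 at -0.30. Within the 75 cells with 10 or more pan-endothelial genes at TPM 10, rho with the mesenchyme list was 0.45 and the difference 1.16 log2. Whether these transcripts come from the cell itself, from a second cell in the same chamber or from free RNA was not tested. Igfbp5 and Gpc3, the genes most like Cdkn1c, were themselves split this way, with medians of 70.96 and 454 TPM in mesenchyme-marker cells, against 0.08 and 2.32 TPM in the other cells.

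**Figure D4:**
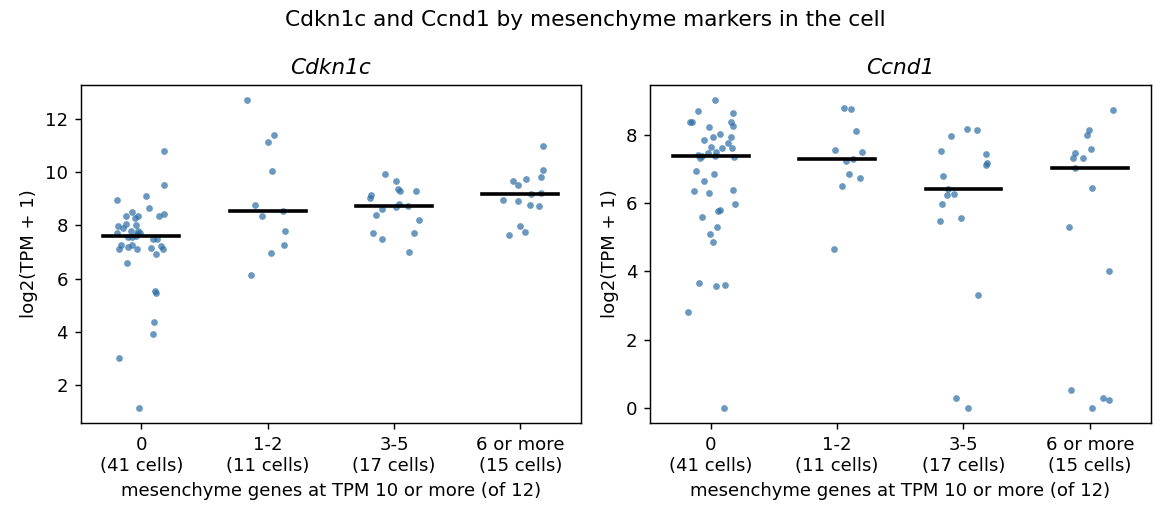
Cdkn1c (left) and Ccnd1 (right) in 84 cells, as log2(TPM + 1), by the number of 12 mesenchyme genes at TPM 10 or more in the cell; points are cells and black bars are medians. Median Cdkn1c is 192, 372, 425 and 570 TPM across the 4 bins, and 6 of the 7 cells without detected Ccnd1 lie in the bins with 3 or more genes.

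Ccnd1 ran the other way, less firmly. Its median was 97.9 TPM in the 32 mesenchyme-marker cells, against 164 TPM in the 52 others, and it was detected in 26 of 32 and 51 of 52 cells. The difference of -1.23 log2 compares with 8.18% of genes lower by 1 log2 unit or more. It was -0.53 within the 75 cells with 10 or more pan-endothelial genes and -0.74 with a pseudocount of 10, and it lay above 0 in 3 of the 7 index sets. Of the 7 cells without detected Ccnd1, 6 held 3 or more mesenchyme genes, and 4 held 6 or fewer pan-endothelial genes. All 7 lay under the median of 6978 detected genes per cell, with 3334 to 6709. Without the 8 cells with the fewest detected genes, Ccnd1 was detected in 96.1% of cells, against 91.7% of all cells. The part of missed transcripts in these absences was not tested. The other members showed smaller gaps: Ccnd2 had medians of 166 TPM in mesenchyme-marker cells and 136 TPM in the others, Ccnd3 of 92.1 and 108 TPM, and Cdk4 of 829 and 781 TPM. Cdkn1a was detected in 3 of 32 mesenchyme-marker cells and 14 of 52 others, and Rb1 in 7 and 21. The cycling markers were themselves higher in mesenchyme-marker cells. Mki67 had a median of 77.04 TPM in them, against 40.3 TPM in the others (difference 1.03 log2), and Top2a of 227 against 200.2 TPM (0.73 log2). The median cycling index was 6.85 in mesenchyme-marker cells and 6.48 in the others.

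In the 9 cells with fewer than 10 pan-endothelial genes, Cdkn1c had a median of 653 TPM, against 259 TPM in the other 75. Ccnd1 was detected in 5 of 9 such cells, against 72 of 75, and Cdkn1a in 0 of 9, against 17 of 75. The cell with the highest Cdkn1c of all, cell 23 at 6596 TPM, held 1 of 17 pan-endothelial genes at TPM 10, with Pecam1 at 0.98 and Cdh5 at 0.79 TPM, and 4 of 8 neural genes. This cell goes against its endothelial label. The next highest cell held 2657 TPM of Cdkn1c.

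The highest Cdkn1a levels fell in cells with the muscle regulator Myog, a gene looked at after the values were seen. Myog reached TPM 10 in 4 cells, at 2380, 522, 459 and 46.1 TPM in cells 41, 25, 64 and 8. Cdkn1a in the same cells was 158, 50.9, 109 and 58.9 TPM, which are the 4 highest of the 84, while the next cell held 41.3 TPM. Cdkn1c in them was 2657, 2223, 728 and 357 TPM, against a median of 261 TPM in the other 80 cells. Myod1, which acts before Myog in muscle, stood at 47.2, 416, 0 and 227 TPM. The cells held 9, 6, 12 and 5 of 14 skeletal muscle genes and 13, 13, 14 and 17 of 17 pan-endothelial genes at TPM 10. Cell 41 also held all 7 of the megakaryocyte or platelet genes at TPM 10, against 0 or 1 in the other 3 cells, and the part of these genes in its values was not tested. The 4 cells were not uniform in cycling, with Mki67 at 5.57, 138, 3.54 and 0.5 TPM and Top2a at 45.5, 435, 262 and 100.3 TPM. Some of the 14 genes, such as Chrna1 and Mef2c, were broadly detected, and 30 cells held 3 or more, so the count alone does not mark muscle. Mylpf was detected in 1 of the 4 cells and in 15 others, and Myf5 in 2 and 9. Myod1 was detected in 3 of the 4 cells and in 2 others, at up to 102 TPM there. Myf6 and Chrng were each detected in 1 of the 4 cells and in 0 others. Without these 4 cells, Cdkn1a was detected in 13 of 80 cells and reached TPM 10 in 7.

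**Figure D5:**
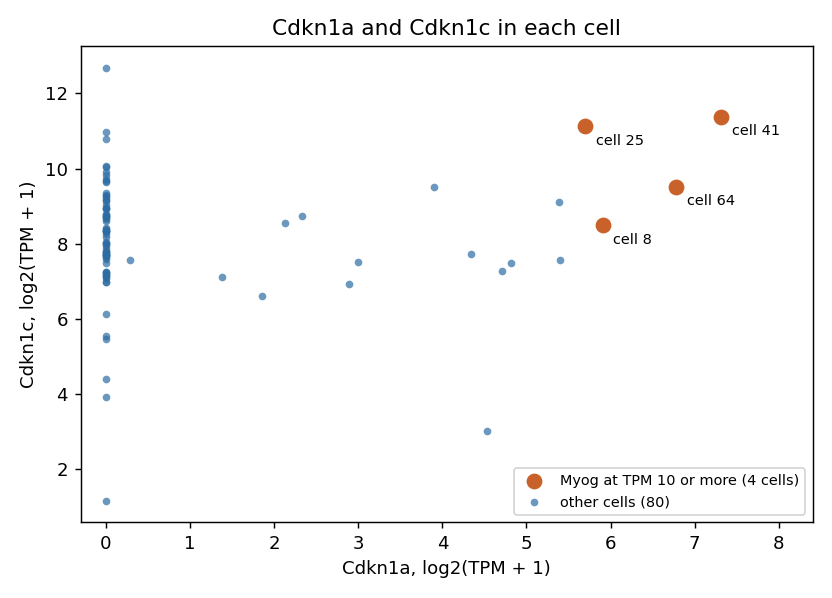
Cdkn1c against Cdkn1a in 84 cells, both as log2(TPM + 1); large points are the 4 cells with Myog at TPM 10 or more and small points the other 80. The 4 large points hold the highest Cdkn1a levels, from 50.9 to 158 TPM, and 2 of them hold 2223 and 2657 TPM of Cdkn1c.

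The p53 pathway was set beside Cdkn1a. In the p53 list, Trp53 was detected in all 84 cells, Plk2 in 83 and Gdf15 in 0. Of 10 other p53 pathway genes detected in 20 or more cells, 0 were higher or lower by 1 log2 unit in the 17 cells with Cdkn1a than in the 67 without, against 7.32% of genes higher and 2% lower, so a count of 0 among 10 is near the background. Their median difference was 0.20 log2, beside 0.16 over all genes. Mdm2, the p53-induced ubiquitin ligase, had the medians 12.5 TPM in cells with Cdkn1a and 3.05 TPM in the others (difference 0.91). Mdm4 had a difference of 0.82 and Trp53inp1 of 0.79, and with Mdm2 these were the highest of the list. Differences ran the other way for Aen (-0.71), Ccng1 (-0.45), Plk2 (-0.28) and Trp53 (-0.22). Trp53 itself had medians of 665 TPM in cells with Cdkn1a and 730 TPM in the others. Of 12 immediate early genes, 0 were higher and 2 were lower, Dusp1 with a difference of -1.57 and Myc of -1.16. Within that list, Jun was detected in 81 cells, Klf6 in 75 and Junb in 29. With the cycling index, 0 of the 10 p53 genes and 1 of the 12 immediate early genes (Fos at 0.31) reached a rho of 0.3. Mki67 had a median of 58.1 TPM in both sets of cells, and Top2a of 288 TPM with Cdkn1a, against 176 TPM without. With 17 cells, 3 of them mesenchyme-marker cells and 4 with Myog, these values describe a mixed set.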

How the data were processed

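The sources give 84 single-cell samples, 1 cell each, with values that the authors deposited as TPM for 20308 genes. Per the submitters' processing notes, the reads were handled with Bowtie 0.12.9, RSEM 1.2.3 and CASAVA 1.8.2 on the build mm10. The order and settings of the tools and the annotation were not given in the sources used here. Libraries were made with SMARTer and Nextera XT kits and pooled at 24 per lane, per the labels' protocols. Depth cannot be read from TPM, so reads per cell are unknown, and a 0 can be a missed transcript. No reads were recounted, and intervals on shares of cells cover counting error only.

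The members and gene lists were chosen with earlier results of these data known. Cells with under 1000 detected genes would have been left out, and 0 were. Levels were compared as TPM or as log2(TPM + 1), where the log scale shrinks differences between low values. Spearman's rho was computed over cells, with all genes detected in 20 or more cells as background. Named genes were the members, both markers, the most and least detected genes of each list, the 3 genes most like each member and arterial genes detected in 8 or more cells. Genes chosen after their values were seen are marked in the text. The value of 1 gene that the rule takes is not reported here. The scripts were tested on simulated data.

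Tools were Python 3.11.15, NumPy 2.4.6, pandas 2.3.3, SciPy 1.17.1 and matplotlib 3.10.9. Coordinates and promoters come from RefSeq GRCm38.p6 (the assembly behind mm10) and exon overlaps from GENCODE M21. A planned comparison of member proteins was not run, since no protein sequences were used here. Alternatives covered the detection threshold, the pseudocount, scaling, Pearson's r, single markers, the G2 and mitosis list, genes detected per cell, and leaving out index sets or cells with markers of other types.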

Additional observations from a re-analysis of the deposited data

How the results depend on the processing

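Of 382 alternative values for the members, 10 moved by more than the spread used as yardstick, which was the exact interval for a share of cells and the SD over index sets for rho and for log2 differences. For rho (sets of 12 cells) and for the differences (spreads of about their own size) this yardstick is wide, so few moves could pass it. The rank correlation with the cycling markers stayed between -0.3 and 0.3 in all but 2 of 207 alternatives. These were -0.57 for Cdk6 among its 11 detected cells and 0.31 for Cdkn2c as the median over the 3 index sets in which it varied. With TPM above 0 as detection, Cdkn1b was found in 92.9% and Rb1 in 47.6% of cells. At TPM 10 the shares were 4.76% for Cdk6, 23.8% for Cdkn1b, 1.19% for Cdkn2c and 13.1% for Rb1. Ccnd1 was detected in 98.1% of the 52 cells without 3 mesenchyme genes and in 97.8% of the 46 cells without 3 genes of any other cell type. Leaving out each index set in turn gave 98.6% to 100% for Ccnd2, 90.3% to 94.4% for Ccnd1, 8.33% to 15.3% for Cdk6 and 2.78% to 5.56% for Cdkn2c, where the low ends of Cdk6 and Cdkn2c are without set 4. The Cdkn1c difference of mesenchyme-marker cells lay between 0.82 and 1.45 log2 without single index sets, and that of Ccnd1 between -1.58 and -0.99 (-0.53 among cells with 10 or more pan-endothelial genes). Exclusions of Myog cells or of cells with few pan-endothelial genes were chosen after seeing the data. The rank correlation of Cdkn2c within its detected cells was not run. No paired analysis was possible because the series has 1 group.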
